A study of Mus musculus with 45 samples.

Results

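Transcript levels after 2 h of bicuculline (Bic, 50 µM) were compared with those of untreated mouse hippocampal primary neurons across all genes. The comparison used 10 of the 45 RNA sequencing libraries of the study: the 5 whose treatment is given as 2 h of Bic and the 5 given as untreated, chosen by label alone. Each group had 1 library from each of the culture preparations 1, 3, 6, 7 and 8, so that every treated library had an untreated partner from its own preparation. All 10 came from C57BL/6N mice on postnatal day 0. The cultures of both groups had been kept with B27 and 1% rat serum, had received AraC, which kills dividing cells, on day in vitro (DIV) 3, and were used on DIV 10 or 11 by the labels and on DIV 11 by the methods of the study. The untreated cultures are not described as having received a vehicle. Dissociated cultures of this kind hold excitatory and inhibitory neurons together with the glia that survive AraC, and lack the wiring of the hippocampus.

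Bic blocks GABA type A receptors, the chloride channels that carry fast synaptic inhibition. In a dissociated network this releases synchronous bursts of action potentials, in which calcium enters through synaptic NMDA receptors and voltage-gated calcium channels and signals to the nucleus. The transcription factors waiting there, among them CREB, SRF and MEF2, switch on immediate early genes, which need no new protein for their transcription. Many of these encode transcription factors themselves, and a slower set of genes for synaptic proteins, secreted factors and metabolic enzymes follows.

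The total counts on genes lay between 11316580 and 50527649 per library (median 25519919). Levels are given as CPM (counts scaled to a common library size) after TMM scaling, which corrects for sequencing depth and not for transcript length, and single values are listed in the order of preparations 1, 3, 6, 7 and 8. Neuronal markers fitted the labelled cell type: the summed level of 10 pan-neuronal markers lay between 8403 and 9299.7 CPM in the control and between 9427 and 10249 CPM after 2 h Bic. The 8 microglia markers tested reached only 10.8 to 14 CPM and 11.3 to 17 CPM in sum. Mitochondrial transcripts made up a smaller share of the counts after 2 h Bic in each of the 5 preparations, at 0.749%, 1.04%, 0.846%, 1.01% and 0.817% in the control and 0.607%, 0.798%, 0.729%, 0.769% and 0.620% after 2 h Bic.

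The response was broad, and its upper end was steep. Of 15269 genes tested, 2195 (14.4%) had higher and 2284 (15%) had lower levels after 2 h Bic, 29.3% in all (edgeR's quasi-likelihood test with the preparation as a block, Benjamini-Hochberg adjusted p under 0.05). Fitted without the block, 1273 were higher and 1592 lower. Of the genes called, 49.0% were higher. With upper-quartile scaling in place of TMM, 1556 were higher and 3222 lower, or 32.6% of the calls higher, so that the balance of rises and falls depends on the scaling. Without the libraries of preparation 7, 1436 genes were higher and 1612 lower.

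Rises went further than falls. At least a doubling was seen in 326 of the higher genes (2.14% of those tested), of which 62 rose between 4- and 8-fold and 41 rose by more than 8-fold. At least a halving was seen in 117 of the lower genes (0.766%), and 1 of these fell by more than 4-fold. Changes of less than 1.2-fold made up 622 of the higher (28.3%) and 665 of the lower calls (29.1%). The median log2 fold change of all tested genes was 0.0089. The 326 doubled genes together took 0.819% ± 0.0474 of the counts in the control and 3.84% ± 0.311 after 2 h Bic (SD, n = 5), whereas the halved genes went from 0.0729% ± 0.00357 to 0.0322% ± 0.00185. The CPM of the groups did not overlap for 2442 genes (16%). In bulk RNA a change in the number of cells of a type and a change in the RNA of each cell cannot be told apart.

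**Figure D1:**
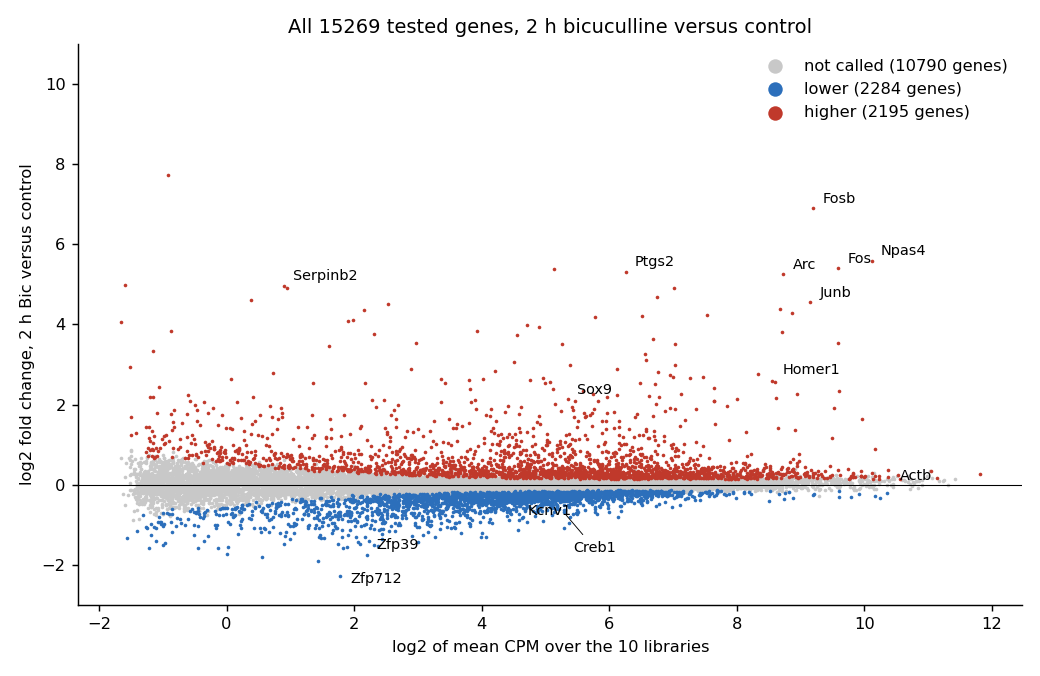
Change of every tested gene after 2 h Bic against its mean level. Each point is 1 of 15269 genes, the x axis is the mean log2 CPM of the 10 libraries and the y axis is the log2 fold change of 2 h Bic over control, with the 2195 higher and the 2284 lower genes in colour. Fosb stands at 6.90 on the upper side and Zfp712 at -2.27 on the lower, and rises spread further from 0 than falls.

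Immediate early transcription factors rose almost as a whole. Of 28 tested, 27 were higher and 1 was not called, against 14.4% of all genes higher, with a median log2 fold change of 3.30. Their summed level was 1497 ± 106 CPM in the control and 14492 ± 1668 CPM after 2 h Bic (SD, n = 5). Fosb (chromosome 7, 19302696 to 19310051, minus strand, GRCm38), a partner of JUN proteins in the AP-1 factor, was at 11.9, 4.9, 9.53, 10.2 and 13.4 CPM in the control libraries and at 1349, 1147, 1289, 1062 and 987 CPM after 2 h Bic. Every treated library thus lay far above every control library, a 119-fold change (log2 fold change 6.90, SE 0.18, edgeR adjusted p = 6.8e-11). Npas4 (chromosome 19, 4984355 to 4990316, minus strand), a factor made almost only in neurons and switched on by calcium entry, had 55, 29.4, 39.3, 67.3 and 40.7 CPM in the control and 2444, 2217, 2327, 2211 and 1689 CPM after 2 h Bic (log2 fold change 5.59, SE 0.15, edgeR adjusted p = 7.7e-11). For Fos (chromosome 12, 85473890 to 85477273, plus strand), the other classic AP-1 subunit, the values were 40.7, 28.5, 32, 44.8 and 32.9 CPM and 1628, 1599, 1698, 1486 and 1119.9 CPM (log2 fold change 5.40, SE 0.12, edgeR adjusted p = 3.2e-11). In each of these 3 genes the lowest treated value was more than 10 times the highest control value.

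The same pattern held in the orphan nuclear receptor Nr4a1, which went from 46.4 ± 9.62 to 888 ± 112 CPM (SD, n = 5; log2 fold change 4.27, SE 0.10, edgeR adjusted p = 3.2e-11), and in Junb, which went from 46.6 ± 8.63 to 1091 ± 132 CPM (log2 fold change 4.56, SE 0.12, edgeR adjusted p = 6.1e-11). Egr1, a zinc finger factor of the SRF pathway, had an uneven baseline of 185, 84, 104, 85.7 and 179.8 CPM and reached 1645, 1281, 1663, 1309.5 and 1121 CPM (log2 fold change 3.54, SE 0.18, edgeR adjusted p = 2.1e-08). Its control libraries of preparations 1 and 8 were the highest, and the groups still did not overlap. Atf3, a stress-induced bZIP factor, rose 29.9-fold from 10.2 ± 10.2 to 248 ± 31.1 CPM (log2 fold change 4.90, SE 0.32, edgeR adjusted p = 1.9e-07), although its control library of preparation 8 stood at 28.4 CPM. Klf4, a Krüppel-like factor, rose 41.5-fold from 1.64 ± 0.212 to 68.2 ± 22.9 CPM (log2 fold change 5.37, SE 0.12, edgeR adjusted p = 3.2e-11). Klf2, of the same family, was the member that did not pass the test, at 1.47, 1.96, 1.64, 1.46 and 0.567 CPM in the control and 0.55, 1.69, 1.21, 0.821 and 0.733 CPM after 2 h Bic (log2 fold change -0.49, SE 0.20, edgeR adjusted p = 0.082).

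The promoters of these leading genes are shown because CREB, a factor that calcium signals act on, binds the cAMP response element, TGACGTCA, or its shorter core, TGACG. The windows are the 250 bases before the start of the gene in RefSeq (GRCm38.p6), written 5′ to 3′ on the gene's strand. Capitals mark matches on either strand, of the full element where a window holds one and of the core otherwise. Over all 32851 promoter windows in the table, 17.8% hold TGACG and 1.55% hold TGACGTCA, which contains the core. The window of Fosb (chr7:19310046-19310295 on the minus strand) holds 1 core, 60 bases before the start. Npas4 (chr19:4989972-4990221 on the minus strand) has cores 179 and 169 bases before the start, and Fos (chr12:85473640-85473889 on the plus strand) has them at 129 and 66 bases.
Fosb: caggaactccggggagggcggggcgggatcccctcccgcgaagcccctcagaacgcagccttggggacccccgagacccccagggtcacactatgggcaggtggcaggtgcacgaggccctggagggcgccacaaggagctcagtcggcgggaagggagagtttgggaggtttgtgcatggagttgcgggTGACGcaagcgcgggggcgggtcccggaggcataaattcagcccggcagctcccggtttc
Npas4: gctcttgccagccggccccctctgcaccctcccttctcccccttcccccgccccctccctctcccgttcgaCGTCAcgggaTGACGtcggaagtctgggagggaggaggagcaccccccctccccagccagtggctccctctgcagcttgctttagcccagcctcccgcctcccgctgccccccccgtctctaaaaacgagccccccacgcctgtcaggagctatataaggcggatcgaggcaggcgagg
Fos: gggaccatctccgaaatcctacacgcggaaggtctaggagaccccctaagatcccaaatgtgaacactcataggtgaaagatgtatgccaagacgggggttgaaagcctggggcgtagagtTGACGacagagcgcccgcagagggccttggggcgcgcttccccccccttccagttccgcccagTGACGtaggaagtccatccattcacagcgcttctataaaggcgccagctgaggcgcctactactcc

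The full element occurred in 4 of the 34 named genes that at least doubled and have a promoter entry. These are Btg2 (chr1:134079156-134079405 on the minus strand, 166 bases before the start), Dusp1 (chr17:26508473-26508722 on the minus strand, 143 bases), Errfi1 (chr4:150854820-150855069 on the plus strand, 51 bases) and Ppp1r15a (chr7:45526269-45526518 on the minus strand, 12 bases). All 4 encode brakes: BTG2 slows cell division, DUSP1 removes phosphate from MAP kinases, ERRFI1 inhibits EGF receptors and PPP1R15A directs a phosphatase to eIF2α. A match of letters is not a measured binding site. No share of promoters over the responding genes is given, since only 68.1% of the doubled and 74.2% of the tested genes have an entry.
Btg2: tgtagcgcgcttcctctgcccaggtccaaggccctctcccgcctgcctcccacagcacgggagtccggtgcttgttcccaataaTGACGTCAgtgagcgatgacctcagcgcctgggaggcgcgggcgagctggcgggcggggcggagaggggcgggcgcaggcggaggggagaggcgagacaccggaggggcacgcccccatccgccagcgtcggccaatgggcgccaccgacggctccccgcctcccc
Dusp1: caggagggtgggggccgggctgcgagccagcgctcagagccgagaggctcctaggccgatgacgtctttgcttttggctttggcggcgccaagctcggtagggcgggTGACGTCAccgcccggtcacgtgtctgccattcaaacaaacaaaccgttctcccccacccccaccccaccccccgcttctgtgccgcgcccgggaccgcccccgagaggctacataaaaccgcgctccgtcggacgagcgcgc
Errfi1: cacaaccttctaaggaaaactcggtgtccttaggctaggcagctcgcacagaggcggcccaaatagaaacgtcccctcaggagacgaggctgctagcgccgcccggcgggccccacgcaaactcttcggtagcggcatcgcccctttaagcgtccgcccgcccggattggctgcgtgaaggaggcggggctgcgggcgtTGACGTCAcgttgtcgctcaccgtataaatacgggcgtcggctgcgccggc
Ppp1r15a: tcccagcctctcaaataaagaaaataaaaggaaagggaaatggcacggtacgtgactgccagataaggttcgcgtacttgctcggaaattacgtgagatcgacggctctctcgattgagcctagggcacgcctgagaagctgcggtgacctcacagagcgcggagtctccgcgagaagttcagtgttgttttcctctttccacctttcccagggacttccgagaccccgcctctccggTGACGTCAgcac

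The transcription factors that are present before stimulation moved in both directions, with a larger share of rises than among all genes. Of 33 MEF2, CREB, ELK, NFAT, NF-κB, C/EBP and related genes and their cofactors, 12 were higher and 3 lower. These were 36.4% and 9.09%, against 14.4% and 15% of all genes. The median log2 fold change was 0.13, and 6 were lower without preparation 3. Nfil3, a bZIP repressor, rose most, from 28.9, 31.3, 33.2, 32.8 and 34.2 CPM to 222, 217, 235, 201 and 205 CPM (log2 fold change 2.75, SE 0.06, edgeR adjusted p = 3.2e-11). Creb1, which encodes CREB itself, fell: it was at 44.4, 46.2, 51.9, 45.5 and 52.5 CPM in the control and at 30.6, 31.9, 32.3, 28.1 and 26.5 CPM after 2 h Bic (log2 fold change -0.69, SE 0.07, edgeR adjusted p = 1.1e-05). The groups did not overlap for either gene. Cebpb went from 13.9 ± 1.72 to 34.7 ± 6.26 CPM (log2 fold change 1.30, SE 0.11, edgeR adjusted p = 3.6e-06) and Nfkb1, the precursor of the p50 subunit, from 12.7 ± 0.353 to 25.9 ± 2.86 CPM (log2 fold change 1.01, SE 0.08, edgeR adjusted p = 9.1e-07). The other lower members were the calcineurin-responsive factor Nfatc3 (log2 fold change -0.34) and Atf2 (log2 fold change -0.17), and Atf2 was not called without the block (edgeR adjusted p = 0.065, and 0.099 to 0.13 without preparation 6, 7 or 8).

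Many of the genes that shut the same signals off again were higher as well. Of 36 phosphatases of MAP kinases, Sprouty and Spred proteins, regulators of G protein signalling, phosphodiesterases and related inhibitors, 22 were higher and 2 lower. These were 61.1% and 5.56%, against 14.4% and 15% of all genes. The median log2 fold change was 0.54, and 13 at least doubled. Dusp1, whose promoter is shown above, rose from 18.2, 16.3, 16.9, 20.6 and 16.2 CPM to 199, 162, 202, 157 and 135 CPM (log2 fold change 3.26, SE 0.09, edgeR adjusted p = 8.6e-11). Sik1, a kinase that keeps the CRTC coactivators of CREB out of the nucleus, rose from 24.6, 22.1, 25.1, 33.1 and 25.7 CPM to 156, 165, 166, 154 and 124 CPM (log2 fold change 2.55, SE 0.10, edgeR adjusted p = 9.6e-10). Neither gene had overlapping groups, and in both the lowest treated library was that of preparation 8. Trib1 rose 7.35-fold and Errfi1 6.49-fold, with log2 fold changes of 2.88 (SE 0.10) and 2.70 (SE 0.06). The members that fell were Dusp7, an ERK phosphatase, from 43.2 ± 3.78 to 25.4 ± 2.37 CPM (log2 fold change -0.76, SE 0.05, edgeR adjusted p = 4.7e-07), and the pseudokinase gene Trib3 (log2 fold change -0.78, SE 0.15). Trib3 had overlapping groups and was not called without the block (edgeR adjusted p = 0.077).

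Secreted factors and neuropeptides formed another rising group. Of 49 tested, 28 (57.1%) were higher and 2 (4.08%) lower, against 14.4% and 15% of all genes. At least a doubling was seen in 12 (median log2 fold change 0.44). Bdnf (chromosome 2, 109674700 to 109727007, plus strand), the neurotrophin that supports survival and synaptic strengthening, was at 81.1, 99.7, 112, 139.7 and 94 CPM in the control and 309, 253, 309, 299 and 331 CPM after 2 h Bic, a 2.87-fold rise without overlap (log2 fold change 1.52, SE 0.10, edgeR adjusted p = 2.7e-07). Inhba, the βA subunit of activin, rose from 8.14, 7.08, 7.19, 7.54 and 8.09 CPM to 47.4, 37.7, 49.3, 49.6 and 48.5 CPM (log2 fold change 2.62, SE 0.07, edgeR adjusted p = 6.8e-11). Inhbb, the βB subunit, fell from 30.8 ± 3.41 to 20.8 ± 4.67 CPM (log2 fold change -0.59, SE 0.11, edgeR adjusted p = 0.0015), so that these related subunits of activin moved in opposite directions. Ccn1, a matricellular protein that binds integrins, rose 25.6-fold, from 9.44, 8.81, 6.15, 9.04 and 5.83 CPM to 260.0, 262, 219, 186 and 105 CPM (log2 fold change 4.68, SE 0.12, edgeR adjusted p = 6.5e-11), with its lowest treated value in preparation 8.

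Among the neuropeptides, Penk, the precursor of enkephalins, rose from 4.62 ± 0.665 to 23.6 ± 3.5 CPM (log2 fold change 2.39, SE 0.10, edgeR adjusted p = 3.9e-09). Nptx2, a pentraxin that clusters AMPA receptors, rose from 23.9 ± 5.48 to 115 ± 34.6 CPM (log2 fold change 2.24, SE 0.08, edgeR adjusted p = 6.4e-10). Serpinb2, an inhibitor of plasminogen activators, was almost silent in the control, at 0.0866, 0.089, 0, 0.039 and 0.567 CPM, and had 3.13, 2.95, 2.99, 5.78 and 3.01 CPM after 2 h Bic (log2 fold change 4.97, SE 0.44, edgeR adjusted p = 3.7e-06). The size of its change depended on single libraries: the log2 fold change was 4.11 without preparation 7, whose treated library was the highest, and 6.46 without preparation 8, whose control library was the highest. Esm1, a secreted proteoglycan, likewise started near 0, with 0.0866, 0.089, 0.0669, 0.136 and 0.206 CPM in the control and 3.3, 4.44, 4.32, 3.19 and 3.42 CPM after 2 h Bic (log2 fold change 4.91, SE 0.23, edgeR adjusted p = 7.5e-09). The other lower gene of the list was Sema3e (log2 fold change -0.18), which was not called without the block (edgeR adjusted p = 0.19, and 0.057 to 0.073 without preparation 6, 7 or 8).

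Of 39 genes whose products act at the synapse in plasticity, 19 (48.7%) were higher and 2 (5.13%) lower, against 14.4% and 15% of all genes. Their median log2 fold change was 0.16, and 6 were lower without preparation 3. Arc (chromosome 15, 74669083 to 74672570, minus strand), which drives the removal of AMPA receptors from synapses, had 35.8, 15.7, 19.1, 16.4 and 25.4 CPM in the control and 999.8, 776, 959, 704 and 696 CPM after 2 h Bic (log2 fold change 5.26, SE 0.14, edgeR adjusted p = 6.8e-11). Homer1, whose short product Homer1a loosens the scaffold of metabotropic receptors, rose from 97.1, 104, 115, 108 and 113 CPM to 738, 551, 617, 660.0 and 644 CPM (log2 fold change 2.57, SE 0.08, edgeR adjusted p = 1.3e-10). The count per gene does not separate the short from the long Homer1 transcripts. Pcdh8, a protocadherin that takes N-cadherin off the membrane, rose from 258, 253, 236, 293 and 229 CPM to 1451, 1223, 1368, 1275 and 1144 CPM (log2 fold change 2.35, SE 0.07, edgeR adjusted p = 1.0e-10). Ptgs2, the inducible cyclooxygenase COX-2, was at 5.54, 2.71, 3.45, 4.52 and 2.17 CPM in the control and 183, 204, 159.9, 148 and 51.6 CPM after 2 h Bic (log2 fold change 5.32, SE 0.16, edgeR adjusted p = 1.4e-10). All 4 had separate groups, and the Ptgs2 response was weakest in preparation 8. The genes that fell were Nlgn3, a postsynaptic adhesion protein, from 66.1 ± 5.75 to 43.8 ± 5.64 CPM (log2 fold change -0.60, SE 0.08, edgeR adjusted p = 8.2e-05), and Slitrk1 (log2 fold change -0.20).

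**Figure D2:**
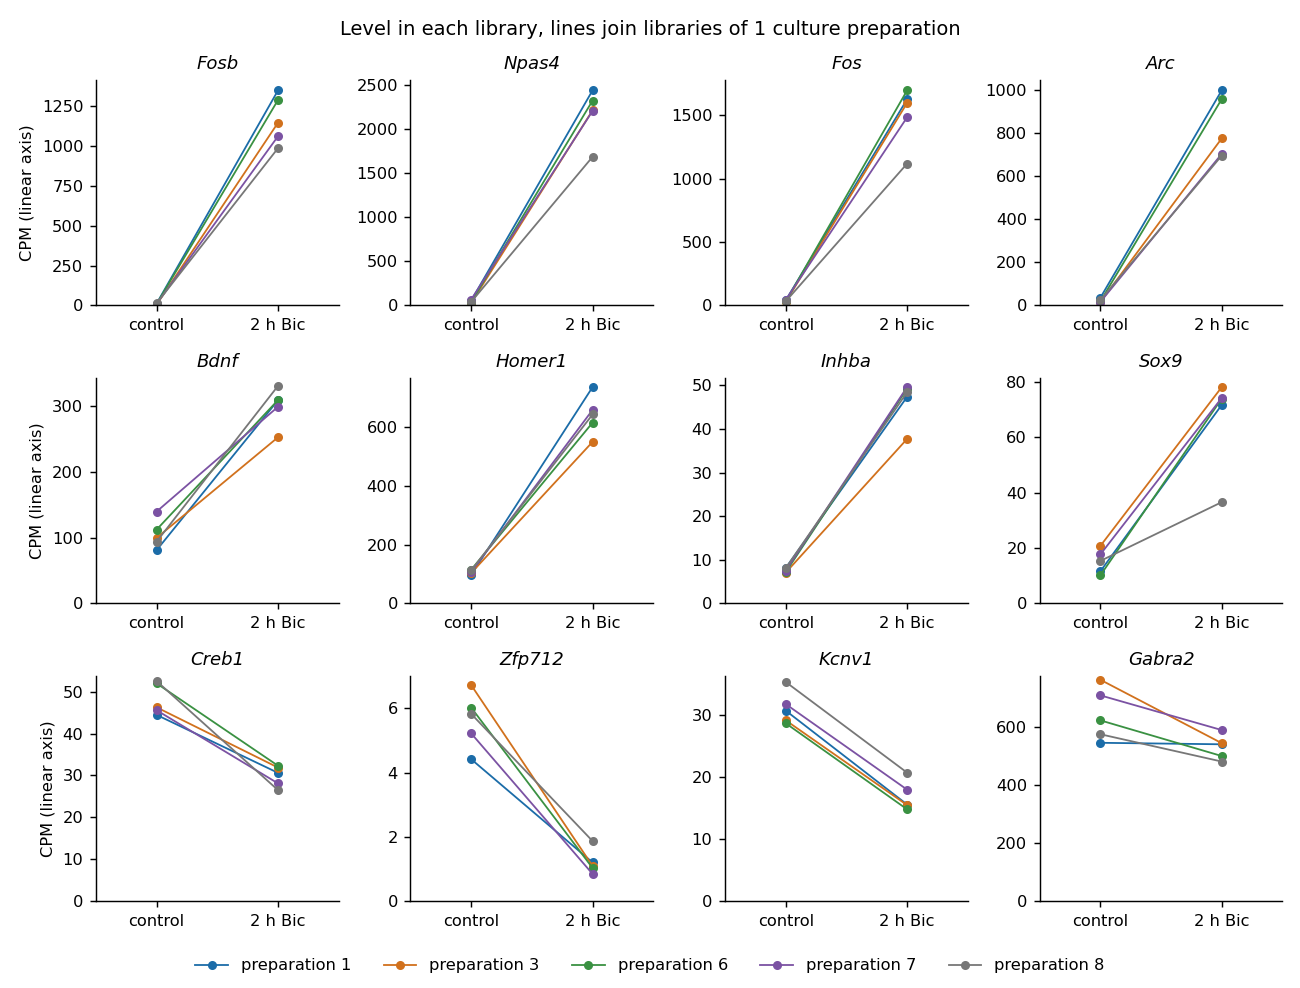
Levels of 12 genes in each of the 10 libraries. The y axis is CPM on a linear axis that starts at 0, each point is a library, and lines join the control and the 2 h Bic library of a culture preparation. All 5 lines rise in Fosb, Npas4, Fos, Arc, Bdnf, Homer1, Inhba and Sox9, all 5 fall steeply in Creb1, Zfp712 and Kcnv1, and the lines of Gabra2 stay within the range of the control or just under it.

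All 9 tested genes of a list of activity-regulated survival genes were higher, with a median log2 fold change of 4.24, and 8 of them at least doubled. The list shares Npas4, Nr4a1, Atf3, Serpinb2, Inhba and Bcl6 with the groups above. Gadd45b and Gadd45g, stress sensors that act on MAP kinases and DNA demethylation, had log2 fold changes of 4.21 (SE 0.08) and 4.24 (SE 0.12). Btg2, whose promoter carries the full element, rose from 20.9 ± 3.02 to 239.5 ± 42.4 CPM (log2 fold change 3.51, SE 0.12, edgeR adjusted p = 3.7e-10). Bcl6, a transcriptional repressor, had the smallest change (log2 fold change 0.34), and was not called without the block (edgeR adjusted p = 0.083), which left 8 of the 9.

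Regulators of cell death themselves went both ways. Of 31 tested, 10 (32.3%) were higher and 5 (16.1%) lower, against 14.4% and 15% of all genes (median log2 fold change 0.02). Without the block 6 were higher and 1 lower. The lower genes numbered 3 without preparation 1 or 6 and 2 without preparation 8. Bcl2l11, which encodes the BH3-only killer BIM, rose from 6.84, 6.23, 6.52, 5.4 and 6.7 CPM to 19, 19.7, 20.3, 15.5 and 16 CPM (log2 fold change 1.52, SE 0.08, edgeR adjusted p = 2.1e-08). Mcl1, an inhibitor of apoptosis that BIM binds, rose from 74.8, 91.1, 85.4, 98 and 88.4 CPM to 173, 158, 160.4, 163 and 167 CPM (log2 fold change 0.91, SE 0.07, edgeR adjusted p = 7.2e-07). Both genes had separate groups, so that a pro-death and an anti-death member of the BCL-2 family rose together. Gadd45a rose from 4.04 ± 0.672 to 10.2 ± 1.57 CPM (log2 fold change 1.35, SE 0.09, edgeR adjusted p = 1.9e-07). Foxo1, a factor that drives death genes, fell from 60.6 ± 5.05 to 45.5 ± 2.78 CPM (log2 fold change -0.41, SE 0.06, edgeR adjusted p = 2.9e-04). Bbc3, another BH3-only gene, and Txnip had log2 fold changes of -0.44 and -0.40, and neither was called without the block (edgeR adjusted p = 0.24 and edgeR adjusted p = 0.16, and 0.058 to 0.093 without preparation 1, 3, 6 or 8).

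Few genes of the receptors that Bic blocks passed the test. Of 13 GABA type A subunits tested, 1 fell and 12 were not called, against 15% of all genes lower. The 12 lay between log2 fold changes of -0.19 (Gabra4) and 0.26 (Gabrd), and 6 of the 13 had an unadjusted p under 0.05 in edgeR. Gabra2, the α2 subunit of synaptic receptors, was at 546, 764, 624, 709.8 and 576 CPM in the control and 541, 545, 501, 590.2 and 482 CPM after 2 h Bic, with overlapping groups (log2 fold change -0.27, SE 0.06, edgeR adjusted p = 0.0075), and was not called without the block (edgeR adjusted p = 0.052). Under upper-quartile scaling 4 subunits were lower. DESeq2 with the block called 1 subunit higher and 1 lower, as did the fit without preparation 6. Without preparation 1 or 3 there were 1 higher and 2 lower.

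Glutamate receptors changed by small steps. Of 28 ionotropic receptor and auxiliary subunits, 7 (25%) were higher and 1 (3.57%) lower, against 14.4% and 15% of all genes. Their median log2 fold change was 0.10. Without the block 1 was higher and 1 lower, and without preparation 7 the higher genes numbered 4. The lower genes numbered 2 without preparation 1 and 4 without preparation 3. Grin1, the obligatory NMDA receptor subunit, was at 561, 369, 538, 514 and 441 CPM in the control and 607, 538, 664, 607 and 543 CPM after 2 h Bic, higher in each preparation while the groups overlapped (log2 fold change 0.30, SE 0.06, edgeR adjusted p = 0.0030; edgeR adjusted p = 0.073 without the block). Gria1, the GluA1 subunit of AMPA receptors, had a log2 fold change of 0.19 (SE 0.06), and was not called without the block either (edgeR adjusted p = 0.15, and 0.069 to 0.13 without preparation 6, 7 or 8). The kainate receptor subunit Grik2 fell from 82 ± 4.73 to 69.6 ± 3.87 CPM (log2 fold change -0.23, SE 0.05, edgeR adjusted p = 0.0059). Of 7 metabotropic receptors, Grm7, an autoreceptor of presynaptic terminals, fell (log2 fold change -0.44, SE 0.05), and 2 were lower without preparation 3. Grm4 was called higher (log2 fold change 0.18), but not without the block (edgeR adjusted p = 0.12) or without preparation 3, 6, 7 or 8 (edgeR adjusted p from 0.060 to 0.16), nor by DESeq2.

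Of 58 potassium channel genes, 13 (22.4%) were higher and 9 (15.5%) lower, against 14.4% and 15% of all genes (median log2 fold change 0.06), and without the block 8 and 3. The lower genes numbered 5 without preparation 7 and 4 without preparation 8. Kcnf1 and Kcnv1 both encode silent subunits, which form no channel alone and modify Kv2 channels, and they moved in opposite directions. Kcnf1 rose from 37.6, 34.7, 46.2, 39.1 and 63 CPM to 103, 98.5, 119, 108 and 144 CPM (log2 fold change 1.40, SE 0.06, edgeR adjusted p = 3.0e-09). Kcnv1 fell from 30.7, 29.1, 28.6, 31.7 and 35.3 CPM to 15.6, 15.5, 14.8, 18 and 20.7 CPM (log2 fold change -0.88, SE 0.06, edgeR adjusted p = 2.8e-07). Neither had overlapping groups. Kcnj2, the inward rectifier Kir2.1 that stabilises the resting potential, rose from 10.1 ± 2.12 to 25.3 ± 3.14 CPM (log2 fold change 1.34, SE 0.09, edgeR adjusted p = 2.3e-07), and Kcnh8 had a log2 fold change of -0.66 that was not called without the block (edgeR adjusted p = 0.090, and 0.060 to 0.075 without preparation 7 or 8).

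Among 31 sodium, calcium and HCN channel genes and calcium channel regulators, 10 were higher and 1 lower. These were 32.3% and 3.23%, against 14.4% and 15% of all genes (median log2 fold change of the list 0.14). Without the block 6 were higher and 1 lower, and without preparation 3 there were 2 lower. The strongest rises were not channels but Rrad, Gem and Rem2, small GTPases of the RGK family that inhibit high-voltage-activated calcium channels. Rem2 rose from 9.35, 11.4, 9.23, 11 and 16.7 CPM to 28.6, 29.7, 24, 22.8 and 35 CPM (log2 fold change 1.27, SE 0.08, edgeR adjusted p = 2.1e-07). Gem rose from 2.25, 2.98, 2.11, 2.36 and 2.17 CPM to 5.5, 6.4, 5.16, 8.05 and 5.78 CPM (log2 fold change 1.41, SE 0.12, edgeR adjusted p = 2.0e-06), and Rrad, at low counts, from 0.26, 0.312, 0.167, 0.175 and 0.464 CPM to 1.43, 1.14, 0.889, 0.60 and 1.63 CPM (log2 fold change 1.99, SE 0.22, edgeR adjusted p = 2.5e-05). No group overlapped for these genes, and no channel subunit of the list doubled. Scn3a, a sodium channel of immature neurons, fell from 73.5 ± 4.26 to 60.9 ± 4.94 CPM (log2 fold change -0.27, SE 0.06, edgeR adjusted p = 0.0065).

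Most chromatin regulators did not pass the test: of 35, 5 were higher and 4 lower, a share near that of all genes (median log2 fold change 0.02). The lower genes numbered 2 without the block and 7 without preparation 3. The higher genes remove methyl marks, except for the class IIa histone deacetylase Hdac5. Kdm6b, a demethylase of histone H3 lysine 27, rose from 40.3, 26.1, 42.5, 41 and 43.1 CPM to 118, 96.8, 101, 97.1 and 104 CPM without overlap (log2 fold change 1.43, SE 0.09, edgeR adjusted p = 1.2e-07). Kdm7a had a log2 fold change of 1.23 (SE 0.09), and Tet2 and Tet3, which oxidise 5-methylcytosine, had log2 fold changes of 0.94 (SE 0.10) and 0.64 (SE 0.08). The fifth was Hdac5, at 0.53, while Hdac7 of the same class was lower and Hdac4 was not called. Hdac7 was not called without the block (edgeR adjusted p = 0.070, and 0.087 to 0.12 without preparation 1, 6 or 7). Setd2, the trimethylase of lysine 36, was lower, at 107, 71.3, 103, 97 and 108 CPM in the control and 70.7, 66.5, 72.6, 69.4 and 71.4 CPM after 2 h Bic (log2 fold change -0.46, SE 0.07, edgeR adjusted p = 4.1e-04). Only its control library of preparation 3 fell within the treated range.

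Of 18 clock genes, 6 (33.3%) were higher and 3 (16.7%) lower, against 14.4% and 15% of all genes. Their median log2 fold change was 0.06, with 6 higher and 1 lower without the block. Members of the repressor arm of the clock rose, Per1 from 72.2, 58.7, 82.9, 82.4 and 84.9 CPM to 342, 308, 329, 304 and 340.3 CPM (log2 fold change 2.10, SE 0.07, edgeR adjusted p = 6.1e-10) and Cry2 from 120.5 ± 14.2 to 235 ± 19.3 CPM (log2 fold change 0.97, SE 0.05, edgeR adjusted p = 3.3e-08), while Cry1 was not called (log2 fold change 0.10). The lower genes were Dbp, Nr1d2 and Clock, at log2 fold changes of -0.25, -0.22 and -0.21, and without preparation 1, 6 or 8 only 1 of the list was lower, without preparation 7 none. Clock was not called without the block (edgeR adjusted p = 0.12). Arntl, the partner of Clock, was not called (-0.04).

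Chaperones of the cytosol rose in part. Of 19 tested, 10 (52.6%) were higher and 1 (5.26%) lower, against 14.4% and 15% of all genes (median log2 fold change 0.19). The lower one was not called without preparation 6 or 8. Hspa1b, an inducible HSP70, rose from 5.28, 3.96, 4.58, 4.75 and 3.25 CPM to 13, 10.4, 11.7, 11.4 and 7.45 CPM (log2 fold change 1.30, SE 0.08, edgeR adjusted p = 9.4e-08), and its co-chaperone Dnajb1 rose from 52.5 ± 2.46 to 124 ± 18.2 CPM (log2 fold change 1.23, SE 0.07, edgeR adjusted p = 6.2e-08). Hspa1a, a near-identical copy of Hspa1b, had a log2 fold change of 0.66; reads that match both copies were not counted, so each value rests on the few bases that differ. Of 23 genes of the endoplasmic reticulum stress response, 6 were higher and 3 lower (median log2 fold change 0.06), with 3 higher without the block and 11 higher without preparation 3. Without the block none was lower, and without preparation 6 or 8 it was 1. Ppp1r15a, one of the promoters with a full element, rose from 39.7 ± 11.1 to 132 ± 20.9 CPM (log2 fold change 1.76, SE 0.07, edgeR adjusted p = 2.8e-09). The chaperone gene Hspa5 had a log2 fold change of 0.42 and Ddit3, the death factor CHOP, one of 0.32, neither called without the block (edgeR adjusted p = 0.097 and edgeR adjusted p = 0.59, and 0.088 to 0.18 without preparation 1, 6, 7 or 8).

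In energy metabolism the transporters stood out. Of 24 genes for glucose uptake, glycolysis and lactate transport, 12 (50%) were higher, against 14.4% of all genes, and 12 were not called. The median log2 fold change was 0.16, and 5 were higher without the block. Leaving out preparation 6, 7 or 8 left 5, 5 and 6 of them. Slc16a1, the monocarboxylate transporter MCT1, rose from 42.9, 49.3, 46, 46.4 and 54.8 CPM to 261, 206, 229, 209.9 and 243 CPM (log2 fold change 2.26, SE 0.07, edgeR adjusted p = 3.4e-10). Slc2a3, the neuronal glucose transporter GLUT3, rose from 227, 206, 219, 233 and 209.8 CPM to 623, 576, 591, 577 and 546 CPM (log2 fold change 1.41, SE 0.05, edgeR adjusted p = 7.4e-10), and Slc2a1, the GLUT1 of glia and vessels, from 22.7 ± 3.73 to 68.9 ± 8.66 CPM (log2 fold change 1.59, SE 0.08, edgeR adjusted p = 2.6e-08). All 3 had separate groups. Pfkfb3, which makes the activator of phosphofructokinase, had a log2 fold change of 0.75 (SE 0.09), and the other 8 enzymes called lay between 0.16 and 0.32. Hk2 was not called without the block (edgeR adjusted p = 0.37). Of 28 genes of cholesterol synthesis, 7 (25%) were higher and 1 (3.57%) lower, against 14.4% and 15% of all genes (median log2 fold change 0.08). The higher genes numbered 3 without the block or preparation 6 and 4 without preparation 7 or 8. The lower gene was not called without the block or without preparation 1, 6, 7 or 8.

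Of 12 nuclear genes for mitochondrial biogenesis, 2 (16.7%) were higher and 3 (25%) lower, near the shares of all genes (median log2 fold change -0.10), and 1 was higher without the block or without preparation 6 or 8. Gabpa, a subunit of the nuclear respiratory factor NRF-2, fell from 21.2, 26.1, 24.1, 22.6 and 24.6 CPM to 16, 15.8, 14.7, 14.8 and 16.4 CPM (log2 fold change -0.62, SE 0.06, edgeR adjusted p = 1.7e-05). Tfam, which packages and transcribes mitochondrial DNA, fell from 39.1, 47.5, 41.8, 39.3 and 44.8 CPM to 28.9, 27.2, 30.1, 27.8 and 34.8 CPM (log2 fold change -0.52, SE 0.07, edgeR adjusted p = 9.7e-05). In both genes every treated library lay below every control library. The coactivator Ppargc1a was not called (log2 fold change 0.10). Of 7 mRNAs encoded in the mitochondrial genome, 5 were lower, between log2 fold changes of -0.32 (mt-Nd5) and -0.21 (mt-Cytb), with overlapping groups. This rested on the pairing, since without the block 1 was called. The number was 3 without preparation 1 or 7 and 2 without preparation 8. Both mitochondrial rRNAs, mt-Rnr1 and mt-Rnr2, had log2 fold changes of -0.33 and -0.33 and were not called without the block (edgeR adjusted p = 0.086 and edgeR adjusted p = 0.069). In libraries made from poly-A RNA these transcripts are caught in part.

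Of 25 genes of the actin cytoskeleton, many of them targets of SRF, 10 (40%) were higher and 1 (4%) lower. This compares with 14.4% and 15% of all genes (median log2 fold change of the list 0.10). Tes, a focal adhesion protein, rose from 5.04 ± 1.1 to 7.68 ± 1.58 CPM (log2 fold change 0.61, SE 0.08, edgeR adjusted p = 1.2e-04), and Myh9, non-muscle myosin, from 52.6 ± 8.97 to 75.1 ± 6.84 CPM (log2 fold change 0.53, SE 0.09, edgeR adjusted p = 0.0010). Actb did not pass the test (log2 fold change -0.01). Of 20 genes of CaM kinases, calmodulin and calcineurin, which carry the calcium signal, 3 (15%) were higher and 1 (5%) lower. The shares of all genes were 14.4% and 15%, and the log2 fold changes lay between -0.23 (Ppp3r1) and 0.41 (Camk1g). Ppp3r1 was not called without preparation 6, 7 or 8, and 2 genes were lower without preparation 1. Of 21 genes of the Notch pathway and related repressors, 4 were higher and 1 lower, and without the block 2 were higher. The lower genes numbered 3 without preparation 3. Notch1 rose from 9.56 ± 1.4 to 13.5 ± 1.47 CPM (log2 fold change 0.49, SE 0.08, edgeR adjusted p = 5.4e-04), and Id2, an inhibitor of bHLH factors, had a log2 fold change of 0.56 (SE 0.06). The ligand Dll1, at a log2 fold change of -0.35, was not called without the block (edgeR adjusted p = 0.055, and 0.053 to 0.063 without preparation 6 or 7).

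**Figure D3:**
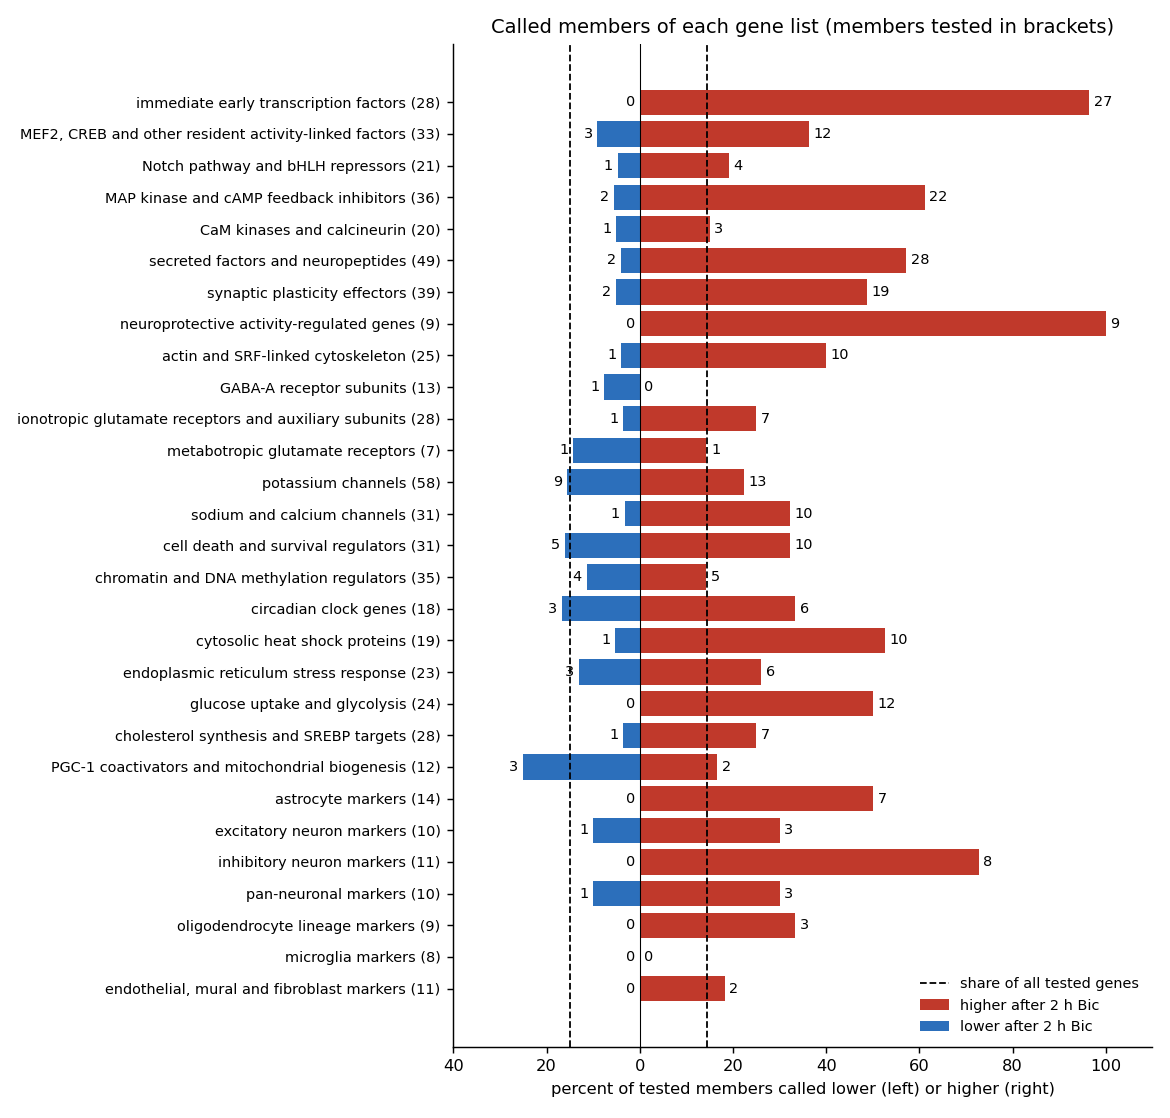
Share of each gene list that was called after 2 h Bic. Bars give the percent of tested members that were higher (right) or lower (left), numbers at the bars are gene counts, the number tested stands in brackets, and dashed lines mark the shares over all tested genes, 14.4% higher and 15% lower. Immediate early transcription factors reach 27 of 28 higher, and GABA-A receptor subunits 1 of 13 lower.

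The genes that fell most were mainly zinc finger genes. By size of the log2 fold change among genes with a mean of at least 1 CPM, 7 of the 12 leading falls carried a Zfp symbol, the mouse prefix for zinc finger proteins, and Zkscan4 belongs to the same structural class. Zfp712 (chromosome 13, 67038596 to 67061170, minus strand) was at 4.42, 6.72, 6.02, 5.22 and 5.83 CPM in the control and 1.21, 1.1, 1.04, 0.852 and 1.87 CPM after 2 h Bic, 4.84-fold lower (log2 fold change -2.27, SE 0.16, edgeR adjusted p = 3.4e-07). Zfp273 (chromosome 13, 67813740 to 67827002, plus strand), which lies on the same chromosome, fell from 3.9, 5.3, 4.55, 3.39 and 4.23 CPM to 0.99, 1.18, 1.06, 1.29 and 1.02 CPM (log2 fold change -1.92, SE 0.14, edgeR adjusted p = 7.2e-07). Zfp39 (chromosome 11, 58888153 to 58904225, minus strand) fell from 6.93, 5.87, 8.16, 6.72 and 7.89 CPM to 1.87, 1.61, 2.47, 1.89 and 2.77 CPM (log2 fold change -1.75, SE 0.10, edgeR adjusted p = 5.5e-08). For each of the 3, every treated value was below every control value. Many such genes are near copies of their neighbours, and since reads that mapped to several places were not counted, their levels rest on the part of each transcript that is unique.

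This pattern extended over the family, which was taken up after its values had been seen. Of 356 tested genes whose symbol begins with Zfp and a digit, 214 were lower and 25 higher, or 60.1% lower and 7.02% higher, against 15% and 14.4% of all genes. Their median log2 fold change was -0.40, and that of all genes 0.0089. In 218 of the 356 (61.2%, against 17.8% of all genes) the level was lower in all 5 preparations, and in 191 (53.7%, against 16%) the groups did not overlap. The set includes 9 genes that are not annotated as protein-coding, such as antisense transcripts and pseudogenes, of which 2 were lower. Of the 324 whose symbol is Zfp and a number alone, 197 were lower and 21 higher. The number lower was between 189 and 239 in every alternative fit. The number higher was between 15 and 27, with 15 without preparation 7 and 16 without the block. The largest rises of the family were Zfp184 (from 2.84 ± 0.422 to 17.6 ± 3.03 CPM; log2 fold change 2.64, SE 0.11, edgeR adjusted p = 2.3e-09) and Zfp516 (from 14.2 ± 1.84 to 57 ± 4.48 CPM; log2 fold change 2.01, SE 0.06, edgeR adjusted p = 2.0e-10), both without overlap. The symbol also covers proteins of other kinds, such as Zfp36l1 and Zfp36l2, which bind AU-rich mRNA, and these had log2 fold changes of 0.33 and 0.49, neither called without the block (edgeR adjusted p = 0.33 and edgeR adjusted p = 0.096).

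**Figure D4:**
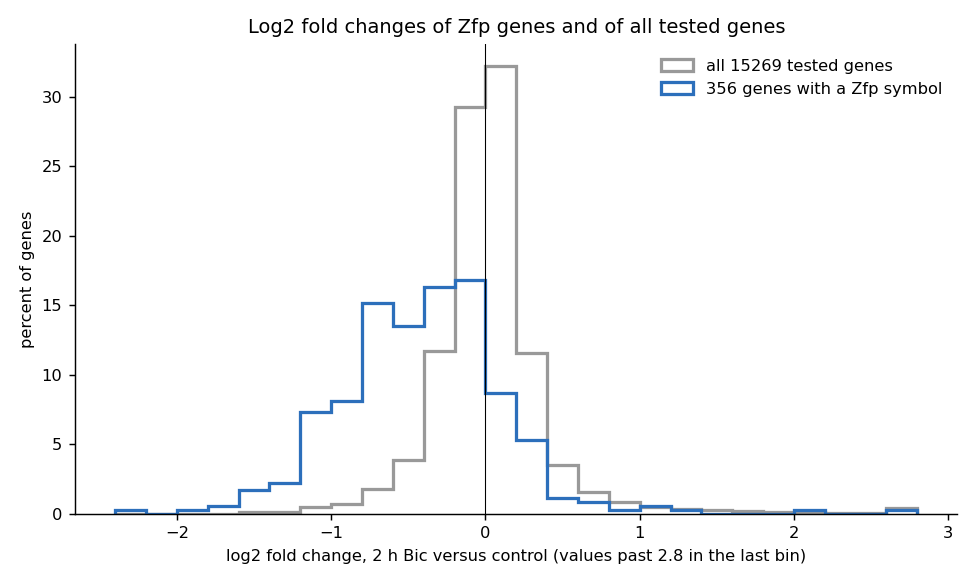
Log2 fold changes of the zinc finger genes and of all genes. The x axis is the log2 fold change of 2 h Bic over control and the y axis the percent of genes in each bin, with 356 genes of a Zfp symbol in blue and all 15269 tested genes in grey. The grey outline is centred at 0.0089, and the blue outline is shifted to the left with a median of -0.40.

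Outside the family, Etaa1, which activates the checkpoint kinase ATR, fell from 6.24, 10.3, 6.26, 7.11 and 6.86 CPM to 2.25, 2.51, 2.79, 1.89 and 3.46 CPM (log2 fold change -1.51, SE 0.15, edgeR adjusted p = 9.1e-06). Inka1, an inhibitor of the kinase PAK4, fell from 1.3, 2.18, 1.54, 1.29 and 1.34 CPM to 0.33, 0.432, 0.494, 0.473 and 0.815 CPM (log2 fold change -1.57, SE 0.22, edgeR adjusted p = 1.9e-04). The groups of both genes were separate, and in both the highest control library was that of preparation 3. BC024063 and Zc3hav1l had log2 fold changes of -1.74 (SE 0.20) and -1.49 (SE 0.22). In absolute CPM, which does not correct for transcript length, the largest losses among called genes lower in all 5 preparations were those of mt-Rnr2, mt-Nd1, mt-Cytb, mt-Nd2, Tubb3 and mt-Rnr1, and the largest gains among those higher in all 5 were those of Fosb, Npas4, Fos, Junb, Egr1 and Pcdh8.

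Non-coding genes made up 8.20% of the higher and 4.77% of the lower genes, and 12.2% of those not called. Of 25 sense intronic transcripts, 11 (44%) were higher and 2 (8%) lower, against 14.4% and 15% of all genes. Gm43359 (chromosome 5, 122482800 to 122484999, minus strand) was at 0.0866, 0.223, 0.0334, 0.117 and 0 CPM in the control and 2.97, 2.95, 2.52, 2.27 and 1.91 CPM after 2 h Bic (log2 fold change 4.62, SE 0.29, edgeR adjusted p = 1.5e-07). 4931440P22Rik (chromosome 3, 65507257 to 65529379, minus strand) rose from 0.866, 0.401, 0.769, 0.292 and 0.361 CPM to 10.1, 11.6, 14.2, 10.3 and 9.0 CPM (log2 fold change 4.52, SE 0.16, edgeR adjusted p = 6.5e-10). Both were near 0 in the control and had no overlap. Of the falls, Gm42595 went from 1.63 ± 0.376 to 0.648 ± 0.134 CPM (log2 fold change -1.23, SE 0.20, edgeR adjusted p = 5.6e-04), and Gm43268 and BC002059 had log2 fold changes of -1.12 and -1.08.

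Of 9 microRNA genes tested, 4 were higher (44.4%, against 14.4% of all genes) and 5 were not called. Mir212 rose from 0.433, 0.223, 0.334, 0.662 and 0.103 CPM to 10.5, 6.4, 7.95, 7.92 and 10.2 CPM (log2 fold change 4.35, SE 0.22, edgeR adjusted p = 1.6e-08), and without preparation 7 its log2 fold change was 4.96. Mir132, its neighbour on chromosome 11, rose from 0.26, 0.267, 0.334, 0.682 and 0.155 CPM to 9.51, 5.42, 7.7, 6.25 and 8.8 CPM (log2 fold change 4.12, SE 0.23, edgeR adjusted p = 4.9e-08), and was named after its values were seen. These counts come from poly-A RNA over the short hairpin genes and so trace the primary transcript, and the mature microRNAs were not measured. The mature sequences are shown because the 3p products of both share the seed AACAGUC, bases 2 to 8, marked by capitals, while the 5p products have different seeds (RefSeq, GRCm38.p6, plus strand; chr11:75173443-75173464, chr11:75173723-75173744, chr11:75173403-75173425 and chr11:75173686-75173707 in the order given).
miR-212-3p: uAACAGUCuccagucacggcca
miR-132-3p: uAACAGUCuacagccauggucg
miR-212-5p: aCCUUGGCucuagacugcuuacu
miR-132-5p: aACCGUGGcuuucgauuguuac

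Among the markers of cell types that were called, Sox9 and Nefl had the largest changes. The higher share was 30% of pan-neuronal, 30% of excitatory and 72.7% of inhibitory markers, against 14.4% of all genes. The lower share was 10% of pan-neuronal and 10% of excitatory markers, against 15% of all genes. Of 10 pan-neuronal markers, 3 were higher and 1 lower: the neurofilament gene Nefl rose from 808 ± 32.9 to 1494 ± 103 CPM (log2 fold change 0.89, SE 0.05, edgeR adjusted p = 5.0e-08), and Tubb3 had a log2 fold change of -0.22 that was not called without the block (edgeR adjusted p = 0.18, and 0.052 to 0.073 without preparation 1 or 7). Of 10 excitatory markers, 3 were higher and 1 lower (median log2 fold change 0.11), with 4 lower without preparation 3, and their summed level was 2471 to 3809 CPM in the control and 3125 to 3638 CPM after 2 h Bic. Of 11 inhibitory markers, 8 were higher (median log2 fold change 0.22) and 3 without the block or 4 without preparation 7, and the sum was 2366 to 3309.5 CPM in the control and 2848 to 3820.3 CPM after 2 h Bic. Sst, the neuropeptide somatostatin, rose from 267, 348, 315, 284 and 219 CPM to 375, 515, 457, 391 and 323 CPM (log2 fold change 0.52, SE 0.05, edgeR adjusted p = 5.8e-06), and Slc32a1, the vesicular GABA transporter, from 244 ± 32 to 314 ± 26.9 CPM (log2 fold change 0.37, SE 0.05, edgeR adjusted p = 2.9e-04). Each rose in all 5 preparations, with overlapping groups. Gad1 and Gad2, the GABA-making enzymes, had log2 fold changes of 0.19 and 0.23 and were not called without the block (edgeR adjusted p = 0.24, and 0.065 to 0.073 without preparation 7 or 8 and edgeR adjusted p = 0.30, and 0.059 to 0.094 without preparation 1 or 7).

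Of 14 astrocyte markers, 7 were higher (50%, against 14.4% of all genes), with a median log2 fold change of 0.18. This number was 2 without the block, 4 without preparation 1 and 3 without preparation 7. The 14 markers summed to 1464 to 1964 CPM in the control and 1584 to 2302 CPM after 2 h Bic. Sox9, a transcription factor of astrocytes and their precursors, stood apart from the rest: it was at 11.6, 20.8, 10.1, 17.7 and 15.4 CPM in the control and 71.8, 78.2, 74, 74.3 and 36.6 CPM after 2 h Bic, without overlap and with the smallest response in preparation 8 (log2 fold change 2.13, SE 0.17, edgeR adjusted p = 1.4e-06). The intermediate filament gene Gfap did not pass the test, at 169, 269, 156, 314 and 196 CPM and 235, 245, 181, 330.2 and 229.7 CPM (log2 fold change 0.17, SE 0.07, edgeR adjusted p = 0.11). The 9 oligodendrocyte markers summed to 132 to 217 CPM in the control and 146 to 204 CPM after 2 h Bic, with 3 (33.3%) higher. None was called higher without the block, without preparation 6 or 7, with upper-quartile scaling or by DESeq2. Without preparation 1 or 3 it was 1. Of 11 endothelial, mural and fibroblast markers, 2 (18.2%) were higher, near the 14.4% of all genes, with 4 without preparation 3 and none without the block. None of the 8 microglia markers was called by edgeR or DESeq2, and 0 had an unadjusted p under 0.05 in edgeR. The part of glia or of shifts in cell make-up in the results above was not tested.

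The series also holds 5 libraries each of 0.5 h and 1 h Bic from the same preparations, which places the 2 h values in time. Since all 3 time points were set against the same control libraries, their values are given side by side. Against control, 80 of 14783 genes were higher after 0.5 h (0.541%), 443 of 15184 after 1 h (2.92%) and 2195 of 15269 after 2 h. Lower genes numbered 175 (1.15%) after 1 h and 2284 after 2 h. For Fosb the log2 fold change was 4.52 (SE 0.23) after 0.5 h, 6.04 (SE 0.10) after 1 h and 6.90 (SE 0.18) after 2 h. For Arc the values were 4.40, 5.33 and 5.26, for Homer1 0.08, 0.60 and 2.57, and for Zfp712 -0.34, -0.88 and -2.27. Arc was at its 1 h level or near it, Homer1 had most of its rise still ahead at 1 h, and Zfp712 was not called at 0.5 h.

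The step from 1 to 2 h was tested directly between those libraries, which leaves the control out. Of 15330 genes, 1686 were higher after 2 h than after 1 h Bic (11%) and 1921 lower (12.5%), and without the block 792 were higher. Of the 28 immediate early transcription factors, 24 were higher after 2 h than after 1 h and 1 lower. Of the 49 secreted factors and neuropeptides, 29 were higher and 3 lower, and of the 39 synaptic genes 15 were higher and 3 lower. Examples are Inhba (log2 fold change 2.17, SE 0.07, edgeR adjusted p = 3.5e-13), Homer1 (log2 fold change 1.98, SE 0.06, edgeR adjusted p = 2.9e-13) and Penk (log2 fold change 1.73, SE 0.09, edgeR adjusted p = 1.7e-10). Bdnf rose by a further 0.82 on the log2 scale (log2 fold change 0.82, SE 0.04, edgeR adjusted p = 1.5e-10). Zfp516 made almost its whole rise in this hour (log2 fold change 1.88, SE 0.05, edgeR adjusted p = 2.9e-13), as its log2 fold change against control was 0.15 after 1 h. Other genes had turned: Ccn1 (log2 fold change -0.70, SE 0.11, edgeR adjusted p = 1.3e-04), Btg2 (log2 fold change -0.54, SE 0.08, edgeR adjusted p = 1.2e-04) and Dusp1 (log2 fold change -0.31, SE 0.08, edgeR adjusted p = 0.0066) were lower after 2 h than after 1 h, though still far above control. Arc was not called (log2 fold change -0.06, SE 0.10, edgeR adjusted p = 0.73). Among the falling genes, Zfp712 (log2 fold change -1.41, SE 0.16, edgeR adjusted p = 2.9e-06) and Zfp39 (log2 fold change -1.40, SE 0.12, edgeR adjusted p = 2.0e-07) fell further in the same hour, and Creb1 too (log2 fold change -0.52, SE 0.04, edgeR adjusted p = 1.6e-07).

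**Figure D5:**
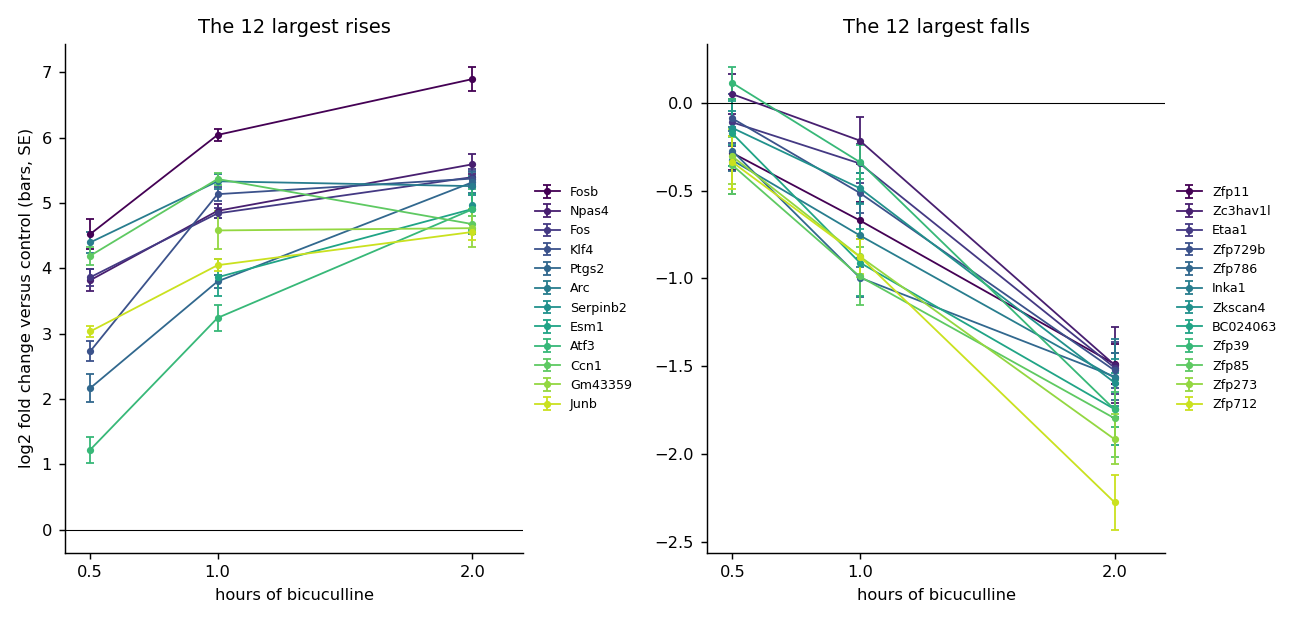
Time course of the 12 largest rises and the 12 largest falls at 2 h among called genes with a mean of at least 1 CPM and the same direction in all 5 preparations. The x axis is hours of Bic, the y axis is the log2 fold change over the same 5 control libraries, bars are SE, and a missing point is a gene that was too low to be tested at that time. Most of the rises are already large by 1 h on the log2 scale. Fosb, Atf3 and Ptgs2 are among those that climb on to 2 h. The falls deepen up to 2 h, down to -2.27 for Zfp712, while Zfp39 still stands at 0.11 after 0.5 h.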

How the data were processed

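RNA was taken from primary hippocampal cultures, and the deposited values are raw counts of reads per gene. The authors made strand-specific poly-A libraries, sequenced them single-end for 75 cycles, demultiplexed with bcl2fastq 2.20.0.422, aligned with STAR 2.5.4b to GRCm38 and counted with featureCounts 1.6.5, with ambiguous reads (more than 1 place or gene) left out. Low levels of near-identical genes are therefore understated.

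Here the table of 54532 genes was used as deposited, and 54495 IDs were matched to symbols and coordinates of GENCODE M21. The main test was edgeR 4.0.16 (R 4.3.3; quasi-likelihood, TMM, filterByExpr) on the 10 libraries, with culture preparation as a block and Benjamini-Hochberg adjusted p under 0.05. The pairing comes from the labels, which give each preparation a number. Same-numbered libraries deviated together from the mean of their condition (r from 0.25 to 0.60 across 13494 genes, mean 0.45). The mean for other numbers, -0.11, is pushed down by this centring and is no separate reference. No library pair was identical. On simulated counts for this comparison over 15269 genes, 83% and 95% of log2 changes of 0.5 and 1 were recovered, and 4.81% of calls were false. CPM values are edgeR's, with TMM factors. DESeq2 1.42.0, other scalings and filters, no block, all 45 libraries and leaving out each preparation were tried as alternatives. P-values set the mean change within preparations against the spread of that change between preparations. Depth (11316580 to 50527649 counts) limits genes at low CPM.

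Genes were named by rule: among called genes with the same direction in all 5 preparations, the 12 leading rises and falls with a mean of at least 1 CPM, the 6 largest CPM gains and losses, up to 4 rises and 3 falls of each list with its defining members, and 3 non-coding genes each way. Some genes that this rule names are not reported here. Other members named, the Zfp family and Mir132 were taken after their values were seen. The comparison and the gene lists were chosen with earlier results of these data known.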

Additional observations from a re-analysis of the deposited data

Results flagged for a closer look

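The levels of the named genes were screened for a single library that stands apart from the other 4 of its group, by its gap relative to the range of the group. Of 372 groups of 5 libraries, 27 were marked, where chance alone marks about 5%. In the control library of preparation 1, this applied to Dusp6 at 63.6 CPM (others 47.6 to 50.8 CPM). In the 2 h Bic library of preparation 3, this applied to Inhba at 37.7 CPM (others 47.4 to 49.6 CPM). In the control library of preparation 3, this applied to Inka1 at 2.18 CPM (others 1.29 to 1.54 CPM), Etaa1 at 10.3 CPM (others 6.24 to 7.11 CPM), Cebpb at 16.9 CPM (others 12.7 to 13.9 CPM) and Grin2b at 465 CPM (others 708 to 806 CPM). Marked there too were Gem at 2.98 CPM (others 2.11 to 2.36 CPM), Kdm6b at 26.1 CPM (others 40.3 to 43.1 CPM) and Dnajb4 at 59.2 CPM (others 54.8 to 55.7 CPM). The others there were Slc2a1 at 29.2 CPM (others 20.1 to 22.4 CPM) and Map2 at 1203 CPM (others 1588 to 1663 CPM). In the control library of preparation 6, this applied to Zfp11 at 5.62 CPM (others 4.69 to 4.85 CPM) and Foxo1 at 51.8 CPM (others 62.1 to 64.6 CPM). In the 2 h Bic library of preparation 7, this applied to Serpinb2 at 5.78 CPM (others 2.95 to 3.13 CPM). In the 2 h Bic library of preparation 8, this applied to Trib1 at 79 CPM (others 123 to 141 CPM), Sik1 at 124 CPM (others 154 to 166 CPM), Myh9 at 87 CPM (others 70.2 to 73.8 CPM) and Gria1 at 858 CPM (others 981 to 1028 CPM). Marked in it too were Grik2 at 62.9 CPM (others 69.9 to 72.3 CPM), Hspa5 at 720.2 CPM (others 429 to 509 CPM), Sox9 at 36.6 CPM (others 71.8 to 78.2 CPM) and Slc32a1 at 267 CPM (others 317 to 332 CPM). In the control library of preparation 8, this applied to Serpinb2 at 0.567 CPM (others 0 to 0.089 CPM), Atf3 at 28.4 CPM (others 4.11 to 7.16 CPM), Rem2 at 16.7 CPM (others 9.23 to 11.4 CPM) and Ddit3 at 78.7 CPM (others 21.5 to 35.6 CPM). Its other marked gene was Esrra at 32.9 CPM (others 38.9 to 41.3 CPM). Of the 27, the control library of preparation 3 and the 2 h Bic library of preparation 8 hold the most. The values above were all kept, except in the alternatives that leave out a whole preparation, and the cause of these gaps was not tested.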

How the results depend on the processing

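Genes at least doubled (326) and at least halved (117) kept within 1.5 times of these counts in every alternative, with 326 to 358 and 99 to 126 when single preparations were left out. The number of higher genes depended on the pairing: without the block it was 1273, without the block and with every gene of 1 or more reads 1311, and 1436 to 2564 when a preparation was left out, lowest without preparation 7. The number of lower genes was 1478 without the block over all genes with 1 read, a setting chosen after seeing the data, and 1612 to 2640 when a preparation was left out. All 2865 genes called without the block were also called with it. DESeq2 with the block gave 1951 higher and 1803 lower genes, the study's own kind of test (DESeq2, no block, all genes with 1 read) 1523 and 1685, RLE size factors 2297 and 2176, and all 45 libraries 2629 and 2917. Genes higher after 2 h than after 1 h numbered 792 without the block, and 1324 to 1525 when a preparation was left out. Of 162 named genes called, 117 were called in every alternative and 42 were not called without the block. The block changed no other call on a named gene. Directions turned only in named genes that were not called. Leaving out a preparation, the log2 fold change of Actb lay between -0.030 and 0.0066, of Grm5 between -0.074 and 0.032 and of Hdac4 between -0.078 and 0.064. Hdac4 was at 0.0032 in DESeq2 with the block and 0.0026 with RLE, and Aqp4 was at -0.024 with upper-quartile scaling. Of 406 alternative list medians, 7 moved by more than the spread between replicates, and list counts that single preparations moved by over 1.5 times stand beside the counts above. Where a value moved, the cause was not tested. Depth limits genes near 0 in the control, whose fold changes rest on few reads.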

Other observations

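The classes of genes called after 2 h Bic differed in some respects that the comparisons above leave out. Genes that were higher spanned a median of 27525 bp on the genome, genes that were lower 22303 bp and all tested genes 23680 bp, introns included. Of 226 genes annotated as processed transcripts, 36 (15.9%) were higher and 5 (2.21%) lower, against 14.4% and 15% of all genes. Of 351 antisense genes, 30 (8.55%) were higher and 15 (4.27%) lower, and of 429 lincRNA genes 52 (12.1%) and 35 (8.16%). Of 210 genes annotated as TEC, models that await evidence, 27 (12.9%) were higher and 34 (16.2%) lower. Among 4 mitochondrial tRNA genes 3 were lower, with a median log2 fold change of -0.84, next to the mitochondrial mRNAs and rRNAs given above. These are counts over the annotation, with no test between classes.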
